A study of Mus musculus with 6 samples.

Results

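The genes described are the mitochondrial carriers of the Slc25 family together with the uncoupling proteins Ucp2 and Ucp3, in hearts of mice given isoproterenol, a drug that stimulates beta-adrenergic receptors and causes cardiac hypertrophy. Members were every row of the deposited gene table whose symbol is Slc25a followed by a number, or Ucp2 or Ucp3, taking the row with the highest mean where a symbol had several. This gave 47 genes among the 25901 rows of the table. They were measured in 3 hearts of SRAKO mice and compared with 3 hearts of WT mice. SRAKO is the submitters' label, read here as knockout of the steroid receptor RNA activator that their title names. The gene is Sra1, whose RNA coactivates nuclear receptors. Both genotypes had received isoproterenol for 4 weeks, so the response to the drug itself cannot be read from these hearts. Strain, age, sex and litter, and which part of the gene was removed and in which cells, are not stated in the labels used here.

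Mitochondrial carriers sit in the inner mitochondrial membrane and exchange nucleotides, phosphate, acids, acylcarnitines, amino acids, cofactors and metals between the matrix and the cytosol. In the heart they carry the traffic of oxidative metabolism: ADP enters and ATP leaves, phosphate enters for ATP synthesis, fatty acyl groups enter as carnitine esters, and reducing equivalents of the cytosol enter through the malate-aspartate shuttle. Uncoupling proteins are members of the same family that lower the coupling of respiration to ATP synthesis or move small metabolites.

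RNA was measured as FPKM, sequenced fragments scaled to transcript length and library size, which allows levels to be compared between genes per length. Values for single hearts follow the order SRAKO2365, SRAKO2371 and SRAKO2372, then WT2368, WT2379 and WT2378. Each difference is the SRAKO mean of log2(FPKM + 1) less the WT mean, fitted with limma across all 10201 rows that reached an FPKM of 1 in at least 3 of the 6 hearts, with Benjamini-Hochberg adjustment over all of them. Of the 47 carriers, 36 passed that filter. From the spacing of the lowest values, an FPKM of 1 corresponded to between 8298 and 13104 aligned bases for each kilobase of transcript. The heart label was checked against 10 cardiomyocyte markers, none of which stayed under an FPKM of 1, with sums of 18187 to 21487 in SRAKO hearts and 18942 to 20545 in WT hearts. Sra1 had 1.96, 1.78 and 2.05 FPKM in SRAKO hearts, against 4.40, 6.31 and 4.23 FPKM in WT hearts, so the genotypes did not overlap. The difference was -1.01 (SE 0.14; limma, Benjamini-Hochberg adjusted p = 0.258; exact two-sided permutation p = 0.1, the smallest that 3 hearts against 3 can give). The row of Sra1 also holds transcripts of the neighbouring gene Apbb3. WT2368 and SRAKO2371 held the most nuclear ribosomal RNA, at 6242 and 3003 FPKM in the ribosomal row, where the other 4 hearts had 273 to 595.

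Levels of the carriers were led by a single gene. Slc25a4, the adenine nucleotide translocase of heart and muscle, took 62.5%, 64.1% and 65.0% of the summed FPKM of the 47 genes in SRAKO hearts, against 66.4%, 62.8% and 61.0% in WT hearts. It was the 37th row of the whole table by mean FPKM. Slc25a11, Slc25a3 and Slc25a5 followed, and these genes with Slc25a4 made up 83.8% to 85.5% of the sum in every heart. The sum itself was 1485, 1613 and 1643 FPKM in SRAKO hearts and 1361, 1515 and 1509 FPKM in WT hearts. By mean over the 6 hearts, 3 carriers were above an FPKM of 100, 10 were between 10 and 100, 23 were between 1 and 10 and 11 were under 1. In this order Slc25a4 lay above Slc25a11 in every heart, and Slc25a3 above Slc25a5, Slc25a5 above Slc25a34 and Slc25a34 above Slc25a20, each with ranges that did not touch. Slc25a11 and Slc25a3, at means of 139 and 107, overlapped. From Slc25a20 at a mean of 19.5 down to Slc25a23 at 10.8 no neighbours in the order differed beyond their range over hearts.

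**Figure D1:**
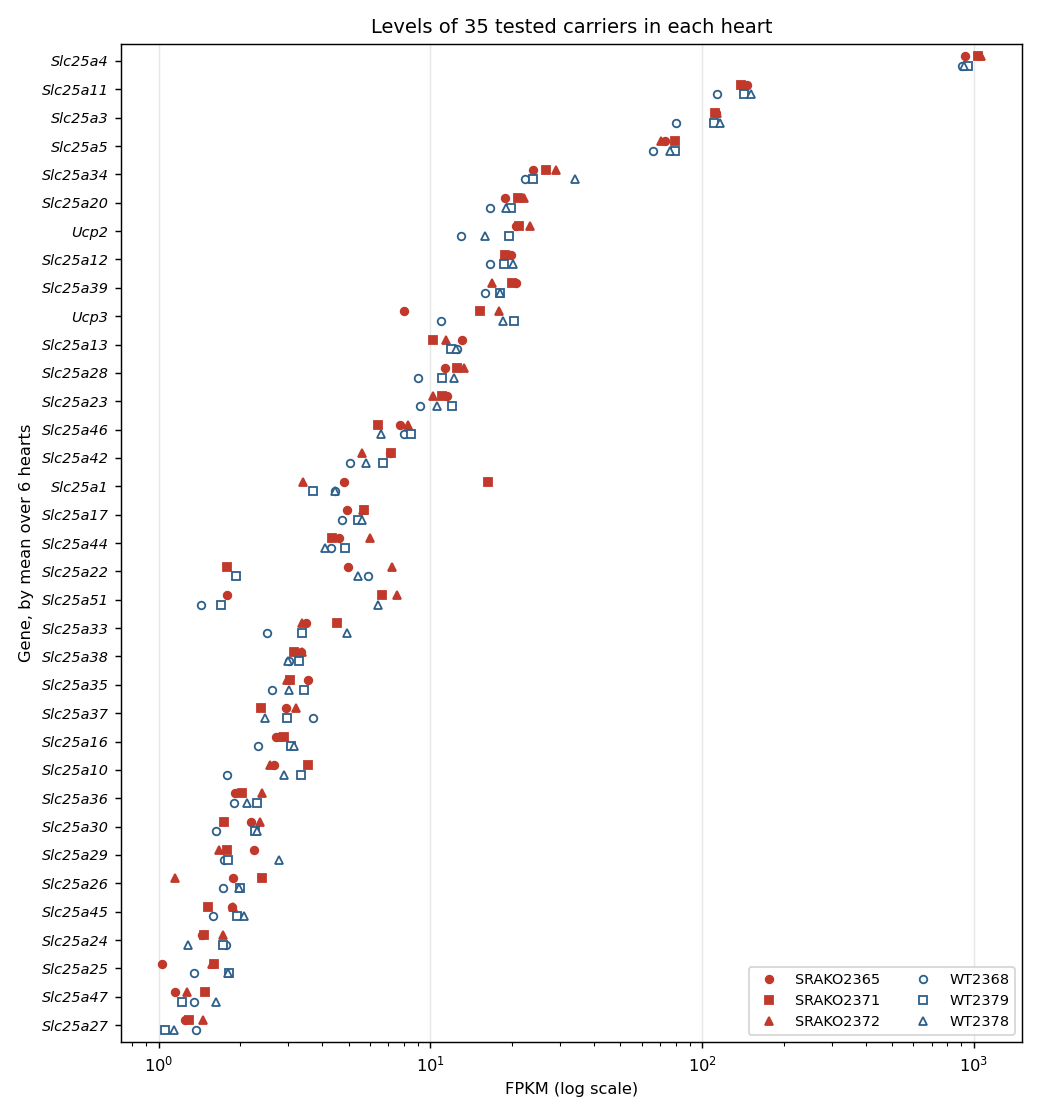
FPKM on a log axis for 35 of the 36 tested carriers, ordered by the mean over 6 hearts; filled red symbols are the 3 SRAKO hearts and open blue symbols the 3 WT hearts, with no error bars since every heart is drawn. Slc25a4 stands alone at the top with a mean of 968, and Slc25a1, Slc25a22 and Slc25a51 have the most scattered points.

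None of the 36 tested carriers passed the test between genotypes (0 of 36; limma, Benjamini-Hochberg adjusted p = 0.999 for each), where 0.0196% of all tested rows passed. At an unadjusted p under 0.05 there was 1 carrier, Ucp2, against 3.46% of all rows (1.9% higher and 1.56% lower in SRAKO hearts). It was also the 1 carrier of 36 whose genotypes did not overlap, against 8.05% of all rows (4.28% higher and 3.76% lower). Of the 36, 25 had a difference above 0 and 11 below, where 5457 of all 10201 rows were above 0 and 4744 below. The median of the carriers was 0.05, beside 0.01 over all rows. The difference lay within 0.2 of 0 for 32 of the 36 carriers, and 85.5% of all tested rows lay within the same limits. The 4 carriers beyond them were Slc25a51, Slc25a1 and Ucp2, with higher means in SRAKO hearts, and Ucp3, with a lower mean. Adding 1 to the FPKM shrinks differences at low levels. With a pseudocount of 0.1 instead, Slc25a51 moved from 0.63 to 0.81, while the median of the carriers stayed at 0.05. WT2368 had the lowest value of the 6 hearts in 20 of the 36 carriers (55.6%), and in 44.9% of all tested rows. Without WT2368 the median difference of the carriers was -0.02, beside -0.04 over all rows. In whole-heart RNA, fewer cells of a type and less RNA per cell cannot be told apart.

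**Figure D2:**
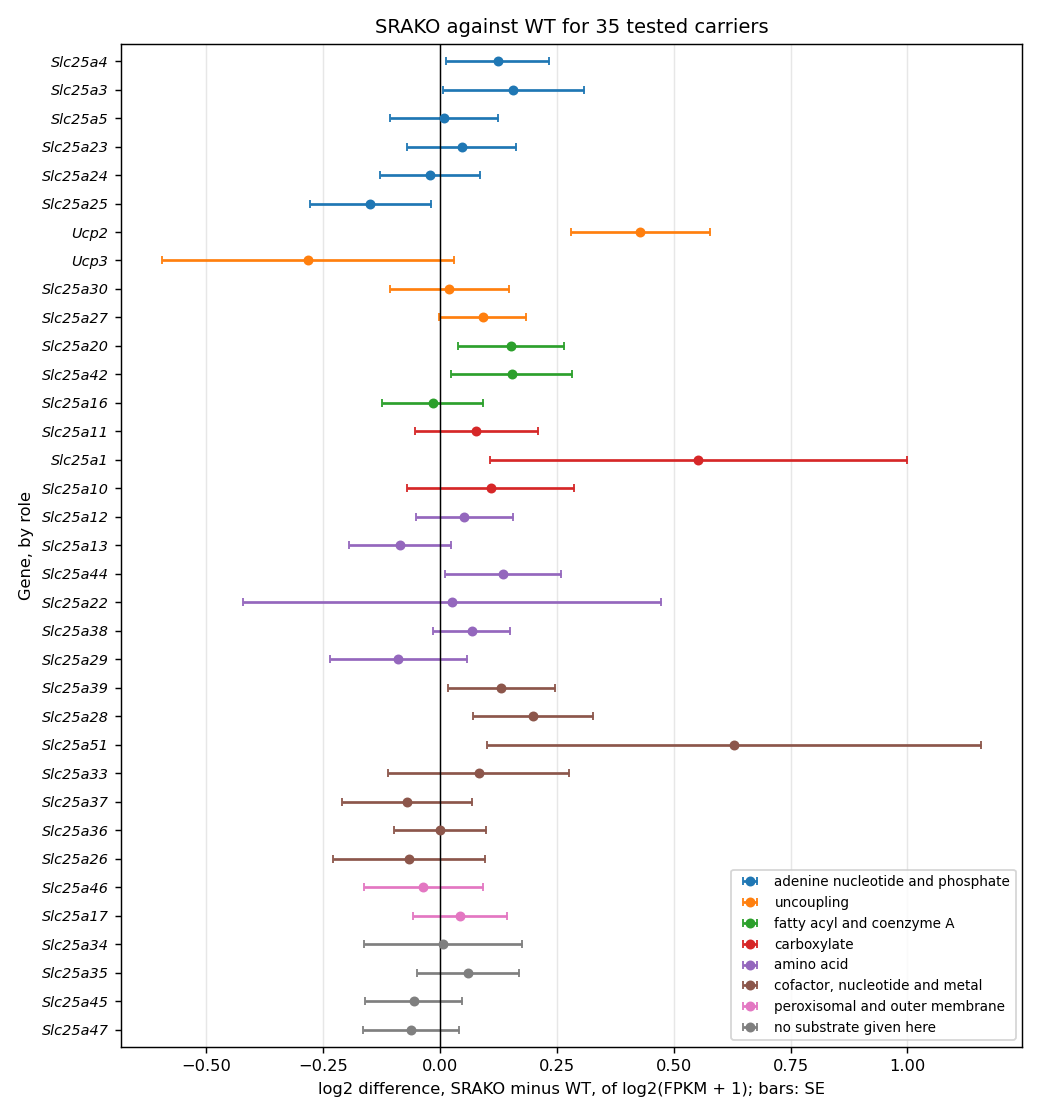
Log2 difference, SRAKO minus WT, of log2(FPKM + 1) for 35 of the 36 tested carriers grouped by what they carry; points are limma estimates and bars their SE, from 3 hearts per genotype. Most points lie within 0.2 of 0; Ucp2 at 0.43 has an SE of 0.15, while Slc25a1 and Slc25a51 lie farther to the right with SEs of 0.45 and 0.53.

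Carriers of adenine nucleotides and phosphate differed little between genotypes in the reported fit. Slc25a4 (chromosome 8, 46206797 to 46211284, minus strand of GRCm38) had 928, 1034 and 1068 FPKM in SRAKO hearts, against 903, 952 and 921 FPKM in WT hearts. The lowest SRAKO heart lay within the WT range and those of SRAKO2371 and SRAKO2372 lay above it. Its means were 1010.0 ± 72.9 in SRAKO and 925 ± 24.7 in WT (SD, n = 3 each), a log2 difference of 0.12 (SE 0.11). After quantile normalization that difference was larger, at 0.25 (SE 0.11). A second, assembled row of the same symbol without a reference transcript was at 8.22, 16.0 and 15.1 FPKM in SRAKO hearts and at 9.23, 16.7 and 11.04 FPKM in WT hearts. Slc25a5, the ubiquitous translocase on the X chromosome (36795651 to 36798807, plus strand), had 72.7, 79.4 and 70.7 FPKM in SRAKO hearts and 65.9, 79.6 and 76.4 FPKM in WT hearts. Its log2 difference was 0.01 (SE 0.11), and the sign of so small a value turned with the scaling, as it was -0.04 after quantile normalization. The ratio of the muscle to the ubiquitous translocase was 12.8, 13.03 and 15.1 in SRAKO hearts and 13.7, 11.96 and 12.1 in WT hearts, so the genotypes overlapped.

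Slc25a3, the phosphate carrier (chromosome 10, 91116574 to 91124059, minus strand), was nearly constant in SRAKO hearts. It had 113, 112 and 113 FPKM there, against 80.3, 110.2 and 116 FPKM in WT hearts. The low WT value belonged to WT2368, and without that heart the log2 difference was -0.0061 where it was 0.16 (SE 0.15) over all hearts. The calcium-regulated ATP-magnesium and phosphate carriers Slc25a23, Slc25a24 and Slc25a25 had means of 10.9 ± 0.619, 1.55 ± 0.157 and 1.40 ± 0.319 FPKM in SRAKO hearts, and of 10.6 ± 1.43, 1.59 ± 0.268 and 1.65 ± 0.267 FPKM in WT hearts (SD, n = 3 each). All 3 overlapped between genotypes. The translocase of testis, Slc25a31, was at 0.0204 to 0.0599 FPKM in SRAKO hearts and 0.0322 to 0.125 FPKM in WT hearts and was not tested. Of the 7 genes of this role 6 were tested, with differences from -0.15 to 0.16 and a median of 0.03.

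Among the uncoupling proteins, Ucp2 and Ucp3 are neighbours on chromosome 7 and were expressed at similar levels in WT hearts. Ucp3 spans 100472990 to 100486432 and Ucp2 spans 100493337 to 100502020, both on the plus strand of GRCm38. Their promoters are shown because the means of the pair lay on opposite sides of WT. Neither difference passed the adjusted test, and the genotypes overlapped for Ucp3. A link between these motifs and the levels was not tested. Each line gives the 250 bases before the gene's start in RefSeq (GRCm38.p6), 5′ to 3′, with 3 motifs in capitals on either strand: the nuclear receptor half-site AGGTCA (or TGACCT), the GC box GGGCGG (or CCGCCC) and the CCAAT box (or ATTGG).
Ucp2, chr7:100493108-100493357, plus strand: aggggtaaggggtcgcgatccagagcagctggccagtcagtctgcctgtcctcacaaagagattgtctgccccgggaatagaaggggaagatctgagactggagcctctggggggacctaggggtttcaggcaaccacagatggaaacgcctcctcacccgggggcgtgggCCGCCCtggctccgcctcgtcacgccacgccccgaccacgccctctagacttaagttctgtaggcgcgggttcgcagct
Ucp3, chr7:100472741-100472990, plus strand: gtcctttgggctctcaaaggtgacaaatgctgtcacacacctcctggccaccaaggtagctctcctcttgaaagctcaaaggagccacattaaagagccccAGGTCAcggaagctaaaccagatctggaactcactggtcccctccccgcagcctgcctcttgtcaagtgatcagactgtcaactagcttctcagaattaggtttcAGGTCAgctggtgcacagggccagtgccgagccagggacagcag
The Ucp3 window holds 2 half-sites and no GC or CCAAT box, and the Ucp2 window holds 1 GC box and neither of the others. Among 32851 promoter windows of the same length in the table, 14.0% held the half-site, 32.7% the GC box and 33.8% the CCAAT box. Promoters of 37 of the 47 carriers were in that table, as 47 windows, since some carriers had more than 1. Of these 47 windows, 5 held the half-site, 33 the GC box and 21 the CCAAT box. Counted by gene, with a hit in any of its windows, 5 of the 37 held the half-site, 26 the GC box and 18 the CCAAT box. Members without an entry included Slc25a2, Slc25a26, Slc25a27, Slc25a32, Slc25a35, Slc25a37, Slc25a44, Slc25a46 and Slc25a51.

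Ucp2, expressed in many cell types including immune cells, had 20.7, 21.3 and 23.3 FPKM in SRAKO hearts, against 12.96, 19.5 and 15.8 FPKM in WT hearts. Every SRAKO heart was above every WT heart, though SRAKO2365 exceeded WT2379 by little more than 1 FPKM. Means were 21.8 ± 1.35 in SRAKO and 16.1 ± 3.28 in WT (SD, n = 3 each), 135% of WT. This log2 difference of 0.43 (SE 0.15; limma, unadjusted p = 0.0210, Benjamini-Hochberg adjusted p = 0.999) did not pass. With 1 heart left out at a time it stayed between 0.29 and 0.57, lowest without WT2368 and highest without WT2379. Markers of macrophages, cells that also hold Ucp2 RNA, had higher means in SRAKO hearts for 9 of 11 genes, with none at 0 in every heart. Their sums were 236.2 to 260.2 FPKM in SRAKO hearts and 195.7 to 234.7 FPKM in WT hearts, which nearly touched. Lyz2 was the largest part of each sum and overlapped, at 114, 119 and 123 FPKM in SRAKO hearts and 95.0, 115 and 110 FPKM in WT hearts. Of the 11 markers 2 had no overlap. Among the 9 tested it was 1, beside 8.05% of all tested rows. Neutrophil markers had higher means in SRAKO hearts for 10 of 10 genes, with sums of 3.51, 34.2 and 70.0 FPKM there and 1.92, 13.5 and 1.28 FPKM in WT hearts. None of these was at 0 in every heart, though Ly6g, Cxcr2 and Camp stayed under an FPKM of 1. The part of either cell type in the Ucp2 difference was not tested.

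Ucp3, the uncoupling protein of skeletal muscle, heart and brown fat, is switched on by fatty acids through PPAR receptors. It had 8.02, 15.3 and 17.8 FPKM in SRAKO hearts, against 10.9, 20.3 and 18.5 FPKM in WT hearts. The genotypes overlapped, with SRAKO2365 and WT2368 low and the other 4 hearts between 15.3 and 20.3. On the log2 scale it differed by -0.28 (SE 0.31), and by 0.04 without SRAKO2365. Pdk4, the pyruvate dehydrogenase kinase that PPAR receptors also induce, had 47.8, 115 and 159.7 FPKM in SRAKO hearts and 75.1, 174 and 149.5 FPKM in WT hearts. Its lowest values were thus in SRAKO2365 and WT2368 as well. Pdk4 is 1 of 24 PPAR targets listed and was not picked by its p value. Of the others, Acot1 and Angptl4 were also lowest in those hearts, but Cd36 was highest in WT2368 and Cpt1a lowest in SRAKO2371. The ratio of Ucp2 to Ucp3 was 2.58, 1.39 and 1.31 in SRAKO hearts and 1.19, 0.960 and 0.855 in WT hearts, a measure chosen after the values were seen and not tested.

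The other uncoupling-related carriers were weak. Slc25a27 was at 1.25, 1.296 and 1.46 FPKM in SRAKO hearts and at 1.38, 1.06 and 1.14 FPKM in WT hearts, and Slc25a30 had means of 2.10 ± 0.327 in SRAKO and 2.06 ± 0.382 in WT (SD, n = 3 each). Slc25a14 was at 0.343 to 0.656 FPKM in SRAKO hearts and 0.182 to 0.493 FPKM in WT hearts and was not tested. Ucp1, the proton carrier that defines brown fat and no member by the rule, had 0.834, 98.9 and 51.1 FPKM in SRAKO hearts, against 2.44, 2.82 and 18.0 FPKM in WT hearts. It was the most variable uncoupling protein of these samples, far above Ucp2 and Ucp3 in SRAKO2371 and SRAKO2372 and below both in SRAKO2365.

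**Figure D3:**
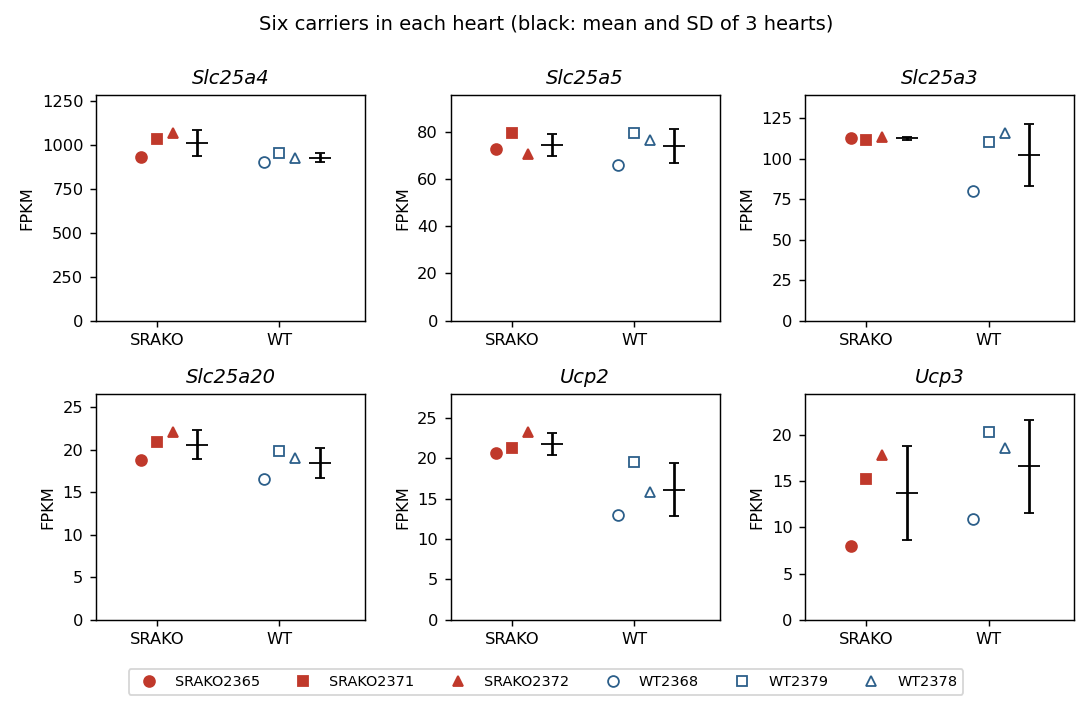
FPKM of Slc25a4, Slc25a5, Slc25a3, Slc25a20, Ucp2 and Ucp3 in each heart, SRAKO in filled red and WT in open blue, with the mean and SD of 3 hearts in black and every axis starting at 0. Only the Ucp2 panel, of these 6, has all SRAKO points (20.7 to 23.3) above all WT points (12.96 to 19.5).

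Slc25a20, the carnitine-acylcarnitine translocase that admits long-chain fatty acyl groups to the matrix, differed by about its spread. It had 18.8, 20.9 and 22.1 FPKM in SRAKO hearts, against 16.5, 19.9 and 19.0 FPKM in WT hearts. SRAKO2371 and SRAKO2372 were above every WT heart and SRAKO2365 was not. It differed by 0.15 on the log2 scale (SE 0.11; limma, Benjamini-Hochberg adjusted p = 0.999). Slc25a42, a coenzyme A carrier, averaged 6.61 ± 0.876 FPKM in SRAKO and 5.85 ± 0.817 in WT, and Slc25a16, tied to coenzyme A from work in yeast, 2.79 ± 0.0932 in SRAKO and 2.85 ± 0.458 in WT (SD, n = 3 each). All 3 genes of this role were tested, with a median difference of 0.15. Without WT2368 the difference of Slc25a20 was 0.08 and the median of the role 0.07; without both WT2368 and SRAKO2371 that median was 0.02.

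Carboxylate carriers include Slc25a11, the second most abundant of the 47 carriers by mean, and Slc25a1, whose value in 1 heart stood far above the others. Slc25a11, the oxoglutarate-malate carrier of the malate-aspartate shuttle (chromosome 11, 70644196 to 70647479, minus strand), had 147, 139 and 142 FPKM in SRAKO hearts and 114, 143 and 152 FPKM in WT hearts. The 3 SRAKO values lay inside the WT range, with a log2 difference of 0.08 (SE 0.13), which was -0.04 without WT2368. Slc25a10, the dicarboxylate carrier, averaged 2.92 ± 0.539 FPKM in SRAKO and 2.68 ± 0.805 in WT (SD, n = 3 each). Slc25a21, the oxodicarboxylate carrier, was listed at 0, 0.0215 and 0.00893 FPKM in SRAKO hearts and at 0.0141, 0 and 0 FPKM in WT hearts.

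Slc25a1, the citrate carrier, exports the carbon that the cytosol uses for fatty acid synthesis. It had 4.82, 16.3 and 3.39 FPKM in SRAKO hearts, against 4.46, 3.71 and 4.45 FPKM in WT hearts. SRAKO2371 stood at more than 3 times any other heart, while the remaining 5 hearts lay between 3.39 and 4.82. The log2 difference of 0.55 (SE 0.45) was -0.04 without SRAKO2371. Enzymes downstream of cytosolic citrate, chosen for display after the values were seen, peaked in the same heart. ATP citrate lyase, Acly, had 6.36, 17.3 and 9.83 FPKM in SRAKO hearts and 6.59, 7.46 and 8.01 FPKM in WT hearts. Fatty acid synthase, Fasn, had 3.83, 31.3 and 10.9 FPKM in SRAKO hearts and 5.26, 3.85 and 6.58 FPKM in WT hearts. The desaturase Scd1 was at 223 FPKM in SRAKO2371, where the other hearts ranged from 10.3 to 32.7. Acly and Fasn were above every WT heart in SRAKO2372 as well, while Slc25a1 was lowest there of all 6 hearts and Scd1, at 17.4 FPKM, lay within the WT range.

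Summed markers of adipocytes and of brown fat were both highest in SRAKO2371 and next highest in SRAKO2372. Slc25a1 shared the first of these only, as SRAKO2372 had its lowest value of the 6 hearts. Adipocyte markers, a list not specific to white fat, had higher means in SRAKO hearts for 10 of 10 genes. They summed to 146, 324 and 189 FPKM in SRAKO hearts and 166, 135 and 145 FPKM in WT hearts. Brown fat markers had higher means in SRAKO hearts for 6 of 7 genes, all but Ppargc1a. Their sums were 246, 427 and 327 FPKM in SRAKO hearts and 211, 263 and 304 FPKM in WT hearts. Most of each sum was Cox8b, at 220, 253 and 232 FPKM in SRAKO hearts and 182, 230 and 253 FPKM in WT hearts. Cox8b overlapped between genotypes, so these sums rest largely on 1 gene and do not measure brown fat alone. No marker of either list was at 0 in every heart, but Lep, Adrb3 and Zic1 stayed under an FPKM of 1. Adipoq, the adipocyte hormone adiponectin, had 2.93, 17.5 and 7.17 FPKM in SRAKO hearts and 4.23, 3.04 and 5.05 FPKM in WT hearts. The part of fat in the Slc25a1 value was not tested.
The promoter of Slc25a1 is shown for the 4 GC boxes and 1 CCAAT box in its window, marked as above.
Slc25a1, chr16:17928220-17928469, minus strand: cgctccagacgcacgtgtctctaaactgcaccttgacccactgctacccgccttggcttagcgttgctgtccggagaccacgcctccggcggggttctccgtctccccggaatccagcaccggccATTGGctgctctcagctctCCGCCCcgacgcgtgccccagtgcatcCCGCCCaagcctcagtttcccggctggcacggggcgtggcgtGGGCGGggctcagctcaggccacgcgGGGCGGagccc
Unlike the Ucp3 window it holds no AGGTCA half-site.

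**Figure D4:**
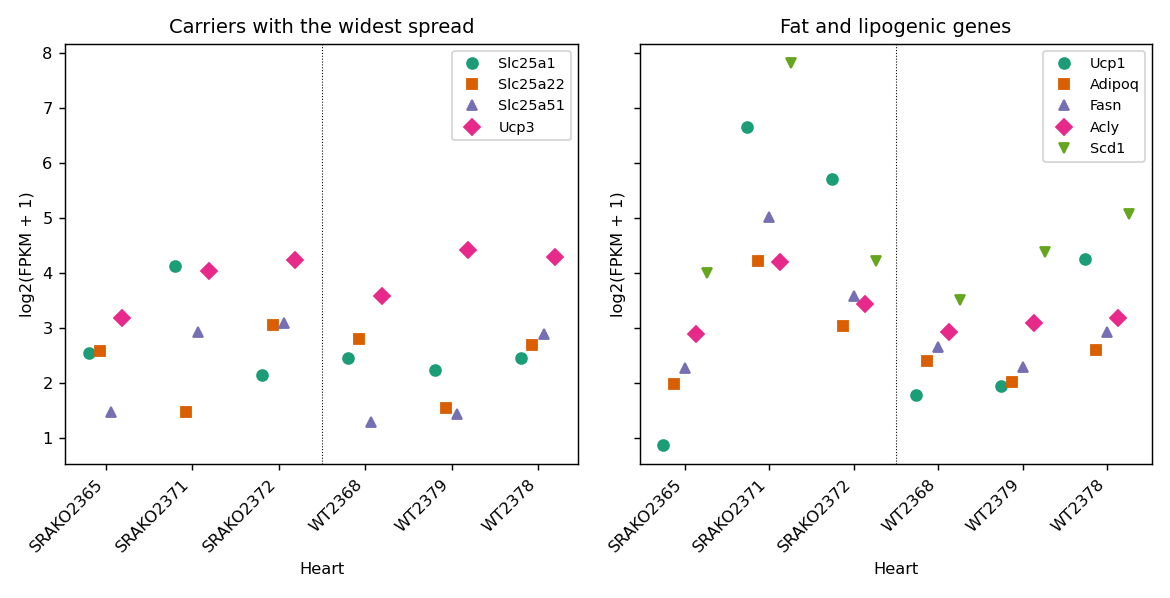
Log2(FPKM + 1) in each heart, SRAKO hearts left of the dotted line and WT hearts right of it, for the carriers with the widest spread (left) and for fat and lipogenic genes (right). Slc25a1 and the fat and lipogenic genes are highest in SRAKO2371; Slc25a22 is low in SRAKO2371 and WT2379, and Slc25a51 is low in SRAKO2365, WT2368 and WT2379.

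Amino acid carriers showed no tested difference. The aspartate-glutamate carriers drive the malate-aspartate shuttle and come as Slc25a12, the form of heart and brain, and Slc25a13, the form of liver. Slc25a12 had 19.8, 18.8 and 18.8 FPKM in SRAKO hearts and 16.6, 18.6 and 20.2 FPKM in WT hearts, with a log2 difference of 0.05 (SE 0.10) that was -0.02 without WT2368. Slc25a13 had 13.1, 10.2 and 11.4 FPKM in SRAKO hearts and 12.5, 11.9 and 12.4 FPKM in WT hearts, a difference of -0.09 (SE 0.11). The heart form thus exceeded the liver form in every heart, by a ratio of 1.51 to 1.83 in SRAKO and 1.33 to 1.63 in WT.

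Slc25a22, a glutamate carrier, fell into high and low hearts without regard to genotype. It had 4.99, 1.78 and 7.22 FPKM in SRAKO hearts, against 5.92, 1.92 and 5.41 FPKM in WT hearts. SRAKO2371 and WT2379 were low and the other 4 hearts lay between 4.99 and 7.22, so the log2 difference of 0.03 had an SE of 0.45. The row joins 25 transcripts, and the table gives no value per transcript. Slc25a44, known in mouse brown fat as a carrier of branched-chain amino acids, had 4.63, 4.36 and 5.996 FPKM in SRAKO hearts and 4.32, 4.85 and 4.11 FPKM in WT hearts. Unlike Ucp1, it was not high in SRAKO2371. Slc25a38, the glycine carrier of haem synthesis, was the steadiest tested member, with 3.16 to 3.38 FPKM in SRAKO hearts and 2.99 to 3.27 in WT hearts. Slc25a29, a carrier of basic amino acids, averaged 1.901 ± 0.307 FPKM in SRAKO and 2.11 ± 0.583 in WT (SD, n = 3 each). The ornithine carriers Slc25a15 and Slc25a2 and the second glutamate carrier Slc25a18 stayed under an FPKM of 1 in every heart and were not tested.

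Among carriers of cofactors, nucleotides and metals, 8 of 10 were tested and had a median difference of 0.09. Slc25a39, a glutathione carrier, had 20.7, 20.0 and 16.9 FPKM in SRAKO hearts and 15.9, 18.1 and 18.1 FPKM in WT hearts. Its relative Slc25a40 was far weaker, at 0.568 to 0.598 FPKM in SRAKO hearts and 0.568 to 0.637 in WT hearts. Of the iron carriers, mitoferrin-2 (Slc25a28) had 11.4, 12.6 and 13.3 FPKM in SRAKO hearts and 8.996, 11.02 and 12.2 FPKM in WT hearts, with a log2 difference of 0.20 (SE 0.13). Mitoferrin-1 (Slc25a37), the form of red cell precursors, averaged 2.84 ± 0.418 FPKM in SRAKO and 3.04 ± 0.630 in WT (SD, n = 3 each), while summed erythroid markers ran from 1071 to 2426 FPKM in SRAKO hearts and from 1398 to 2097 in WT hearts.

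Slc25a51, the NAD carrier, had the largest difference of the 36 tested carriers and the widest spread. It had 1.78, 6.61 and 7.52 FPKM in SRAKO hearts, against 1.43, 1.703 and 6.39 FPKM in WT hearts. SRAKO2365, WT2368 and WT2379 were low and the other 3 hearts high, so the genotypes overlapped, at a log2 difference of 0.63 (SE 0.53). With 1 heart left out it ran from 0.33 to 1.14. The row also carries the predicted microRNA gene Gm25692, which lies within Slc25a51. The 3 carriers Slc25a51, Slc25a1 and Slc25a22 each had a highest heart more than 4 times the lowest, which 2.41% of all tested rows did, while the median ratio was 1.40 over the tested carriers and 1.41 over all tested rows.

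The cofactor and nucleotide carriers that follow differed by less than their spread. For the S-adenosylmethionine carrier Slc25a26 the mean levels were 1.81 ± 0.629 FPKM in SRAKO and 1.89 ± 0.149 in WT. The pyrimidine nucleotide carriers Slc25a33 and Slc25a36 averaged 3.79 ± 0.630 and 2.11 ± 0.254 FPKM in SRAKO and 3.61 ± 1.23 and 2.11 ± 0.204 in WT (SD, n = 3 each). The folate carrier Slc25a32 had 0.842, 0.684 and 1.06 FPKM in SRAKO hearts and 0.815, 0.986 and 0.646 in WT hearts and missed the filter. Slc25a17 of the peroxisome averaged 5.44 ± 0.418 FPKM in SRAKO and 5.25 ± 0.471 in WT, and Slc25a46 of the outer mitochondrial membrane 7.47 ± 0.926 in SRAKO and 7.68 ± 0.998 in WT.

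Of 7 members for which no substrate is named here, Slc25a34 was the strongest and came next after the 4 leading carriers. It had 23.8, 26.7 and 28.9 FPKM in SRAKO hearts and 22.3, 23.9 and 34.0 FPKM in WT hearts, with WT2378 highest. Slc25a35 averaged 3.19 ± 0.317 FPKM in SRAKO and 3.03 ± 0.413 in WT, Slc25a45 1.75 ± 0.201 in SRAKO and 1.86 ± 0.251 in WT, and Slc25a47 1.301 ± 0.171 in SRAKO and 1.40 ± 0.210 in WT (SD, n = 3 each). Slc25a43, Slc25a48 and Slc25a53 were at most at 0.160 FPKM in SRAKO hearts and 0.0944 in WT hearts. Together with Slc25a21, Slc25a43 and Slc25a48 were the 3 carriers listed at 0 in at least 1 heart.

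Genes that work beside the carriers gave the same picture, with no gene passing limma's test after Benjamini-Hochberg adjustment in any of 7 lists. Carrier proteins reach the inner membrane through the TOM complex and the TIM22 translocase. The import list holds genes of this route, and also Timm23 and Timm44 of the TIM23 translocase. Of the 15 tested genes of this list 0 passed (0 at an unadjusted p under 0.05), with a median difference of -0.03. Its smallest p values belonged to Tomm6, at 6.23 ± 0.325 FPKM in SRAKO and 5.54 ± 0.487 in WT, and Timm22, at 2.07 ± 0.482 in SRAKO and 2.40 ± 0.256 in WT. Of 19 tested porins, pyruvate carriers and other membrane transporters 0 passed (0 unadjusted, median 0.05), led by the cholesterol-binding protein Tspo at 15.2 ± 2.39 in SRAKO and 11.9 ± 3.06 in WT and by Mtch1 at 23.9 ± 2.65 in SRAKO and 19.8 ± 4.33 in WT. The 17 tested ATP synthase genes had a median of 0.09 and 0 passed (0 unadjusted). Atpif1, the inhibitor of ATP synthase, was the 1 gene of the 17 without overlap, where 8.05% of all tested rows had none, at 43.2, 44.8 and 52.0 FPKM in SRAKO hearts and 41.3, 37.9 and 40.7 in WT hearts. Atp5h followed it, at 267 ± 9.42 in SRAKO and 244 ± 29.3 in WT.

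The carnitine shuttle, which includes Slc25a20, had a median of 0.11 over 7 genes with 0 passing (0 unadjusted). Crat, carnitine acetyltransferase, was at 65.2 ± 5.71 FPKM in SRAKO and 58.9 ± 3.69 in WT. The malate-aspartate and glycerophosphate shuttles, which share 4 members with the carriers, had a median of 0.08 over 11 genes with 0 passing (0 unadjusted). Gpd1, the cytosolic glycerophosphate dehydrogenase, had 20.1, 106 and 61.6 FPKM in SRAKO hearts and 22.0, 19.1 and 34.9 FPKM in WT hearts, high in the hearts with high Ucp1. Its mitochondrial partner Gpd2 had 1.19, 2.69 and 2.09 FPKM in SRAKO hearts and 1.22, 1.36 and 1.504 in WT hearts.

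Of 24 PPAR targets 0 passed and 1, Ucp2, had an unadjusted p under 0.05, beside 3.46% of all tested rows, with a median of 0.04 over the list. Among the 12 tested regulators of mitochondrial gene expression 0 passed, 1 had an unadjusted p under 0.05 (again beside 3.46% of all tested rows), and the median was -0.02. That gene was Esrrb, an estrogen-related receptor, with 1.40, 2.13 and 1.76 FPKM in SRAKO hearts and 4.33, 4.12 and 2.11 FPKM in WT hearts, where WT2378 fell within the SRAKO range (limma, unadjusted p = 0.0133, Benjamini-Hochberg adjusted p = 0.999). Esrrg, its relative in heart muscle, averaged 2.20 ± 0.406 FPKM in SRAKO and 2.67 ± 0.420 in WT (SD, n = 3 each).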

How the data were processed

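The authors deposited 1 table of FPKM values per gene and heart, for 3 SRAKO and 3 WT hearts, grouped here by sample title. The tools listed in the submitters' processing notes are edgeR, StringTie 1.3.4d, HISAT2 2.0.4 and cutadapt 1.9, and the build listed is hg38, although the identifiers are of mouse; 99.6% of the transcript identifiers matched GENCODE M21 on GRCm38, the source of the positions. Libraries were made with oligo(dT) beads per the labels' protocols; strand is not stated. Of the 47 carriers, 25 are in loci assembled by StringTie. FPKM is not a count. Of the low values, 61.7% to 77.1% fell on whole steps of 1 aligned base within 0.05, and bases are not reads, which leaves no counts to test.

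Values were moved to the log2(FPKM + 1) scale and fitted with limma 3.58.1 under R 4.3.3 (variance trend, two-sided, prior of 3.69 degrees of freedom, threshold 0.05), after a filter at an FPKM of 1 in 3 of 6 hearts. The code was tested on simulated data. Nothing in the labels says outright that hearts came from separate animals, so p-values measure the spread between these samples. Pearson correlations between hearts, across genes, were 0.969 to 0.988, and no 2 columns were identical. The members and lists were chosen with earlier results of these data known. Members named in full were a set of 9, any with an unadjusted p under 0.05 or no overlap, and, after the values were seen, Slc25a1, Slc25a22 and Slc25a51; from each list the 2 smallest p values were named. Of the genes these rules name, 2 are not reported here; both stay in the counts and medians. Other pseudocounts, filters, scalings, heart weights and left-out hearts were tried.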

Additional observations from a re-analysis of the deposited data

How the results depend on the processing

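No paired analysis was possible because the genotypes share no replicate numbers. Over the alternatives to the pseudocount, filter, scaling, heart weights and set of hearts, 0 carriers and 0 genes of the pathway lists passed limma's adjusted test, with 0 to 2 carriers at an unadjusted p under 0.05. Rows called in the whole table, 2 in the reported fit, were 1 with a pseudocount of 0.1 and 1 with a filter at a mean FPKM of 5. They were 0 with no filter (919 at an unadjusted p under 0.05), 0 without both WT2368 and SRAKO2371 (672), and 0 to 7 with 1 heart left out.

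Several differences changed sign. Slc25a5 was at -0.0023 with equal medians, -0.038 after quantile normalization and -0.066 with array weights. Without both WT2368 and SRAKO2371, the differences were -0.12 for Slc25a5, -0.0008 for Slc25a3, -0.024 for Slc25a11, -0.0041 for Slc25a12, 0.0046 for Slc25a13 and -0.0046 for Slc25a1. With 1 heart left out they ran from -0.071 to 0.063 for Slc25a5, from -0.0061 to 0.26 for Slc25a3, from -0.044 to 0.16 for Slc25a11, from -0.017 to 0.11 for Slc25a12, from -0.040 to 0.95 for Slc25a1, from -0.37 to 0.47 for Slc25a22 and from -0.54 to 0.038 for Ucp3. The cause was not tested. The sum of both rows of Slc25a4 gave 0.12. The median over the carriers was -0.0008 with array weights and -0.0005 without both hearts, beside -0.02 and -0.03 over all tested rows. Depth limits the weakest carriers, such as Slc25a21, Slc25a43 and Slc25a48 with some hearts at 0, where a level rests on few aligned bases.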
